A study of Mus musculus with 12 samples.

Results

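Cluster 24, which the authors named PN 2, is a small group of projection neuron nuclei in the cortex of mouse embryos, and it was described here by all nuclei that the authors assigned to it. It held 275 of the 50550 nuclei in 25 clusters, and 267 of the 275 came from the 10 embryos with at least 10 of its nuclei. In single nucleus RNA sequencing (snRNAseq) each captured RNA molecule carries a unique molecular identifier (UMI), so that molecules and not reads are counted, and each library held the nuclei of 1 embryo. All embryos were C57BL/6J. Pregnant dams received 6 daily intraperitoneal injections of saline, or of 2.5 g/kg EtOH given as 25% (v/v) in saline, from E8.5 to E13.5, and cortices were taken at E14.5 by the methods and at embryonic day 14 by the labels. Saline dams S1 and S2 gave the 5 embryos used here (S1-1, S1-2, S2-1, S2-2 and S2-4), and embryo S2-3 was not analysed here. EtOH dams E1 and E2 gave 6 (E1-1, E1-2, E2-1, E2-2, E2-3 and E2-4). Batch 1 held the litters of S1 and E1, and batch 2 those of S2 and E2. With 2 dams per treatment, every p-value below takes littermates as independent.

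Projection neurons are the glutamatergic neurons that send long axons out of the cortex, and Neurod2 is a transcription factor that they switch on as they mature. Reln encodes Reelin, a large secreted protein that binds the receptors Lrp8 and Vldlr, acts through the adaptor Dab1 and guides the placement of migrating neurons. In the embryonic cortex Reelin is best known from the Cajal-Retzius cells of Layer I, and mitral cells of the olfactory bulb are among the other neurons known to make it.

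Counts were added up over each embryo's nuclei and given as CPM, which scales them to the same total of UMIs in that embryo's Cluster 24. UMI counts are not scaled to the length of a gene, so each gene was compared between clusters or embryos and not with other genes. The 10 embryos gave 79656 to 766191 UMIs in the cluster, so 3 UMIs of a gene correspond to 3.92 to 37.7 CPM, and their median UMIs per nucleus lay between 6700 and 12614. EtOH embryo E2-2 had 8 nuclei and was left out of means, ranges and tests except where it is named, so that the EtOH embryos are otherwise the 5 others. Between any pair of the 11 libraries 1 to 18 cell barcodes were shared over all clusters, and 0 in Cluster 24.

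In 3 embryos the cluster was rare and its profile stood apart. Saline embryos S1-1 and S2-4 and EtOH embryo E2-2 had 14, 10 and 8 nuclei in it, or 0.183%, 0.139% and 0.162% of their nuclei, against 0.526% to 1.05% in the other 8 embryos. The 20 leading genes that the authors list for the cluster summed to 26673, 24204 and 30490 CPM in these 3 embryos and to 44984 to 53585 CPM in the other 8. Their profiles over 6293 genes correlated with those of the other embryos at r = 0.865, 0.824 and 0.844, against 0.906 to 0.963 for the rest, as a description over genes. S1-1 and S2-4 make up 2 of the 5 saline embryos, so many comparisons between treatments are also given without them.

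**Figure D1:**
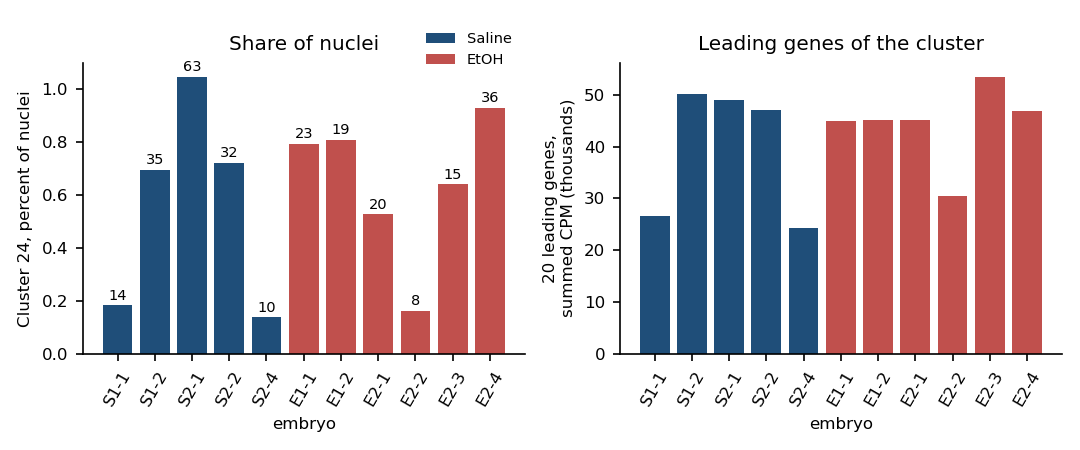
The bars show, for each of the 11 embryos (blue for saline, red for EtOH), the percentage of all nuclei that were in Cluster 24 on the left and the summed CPM of its 20 leading genes on the right. Embryos S1-1, S2-4 and E2-2 have the lowest bars in both panels, at 0.139% to 0.183% of nuclei and 24204 to 30490 CPM.

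The markers given for the cluster were present. Reln was far above the other projection neurons, and the mean of Neurod2 was near the low end of their range. Reln lies on chromosome 5 of GRCm38 between 21884454 and 22344702. Its level was 2130 ± 614 CPM (SD, n = 10 embryos), second to the 10477 CPM of the Layer I Cluster 14, while the other 7 PN clusters had 66.7 to 697 CPM. Neurod2, which lies on chromosome 11 between 98325415 and 98329648, had a level of 90.2 ± 61.1 CPM (SD, n = 10), rank 9 of the 25 clusters. The other PN clusters had 80.2 to 294 CPM. Neurod2 was at 207 and 188 CPM in S1-1 and S2-4 and at 27.6 to 99.6 CPM in the rest of the 10 embryos. Of these, S2-1 and every EtOH embryo lay below 80.2 CPM. Reln was at 1206 CPM in the lowest of the 10 embryos and at 1073 CPM in E2-2, so each of the 11 lay above the mean of every other PN cluster.

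Further projection neuron genes were found beside these markers. Tbr1, a transcription factor of early-born glutamatergic neurons, was at 101 ± 29.1 CPM (SD, n = 10), the highest of the 25 clusters by a small margin over the 96.1 CPM of Cluster 4. Slc17a6, the vesicular glutamate transporter VGLUT2, was at 293 ± 79.4 CPM (rank 5). The interneuron genes Gad1 and Gad2, which make GABA, were at 5.38 and 28.4 CPM (ranks 25 and 24). Of 10 genes in the projection neuron list 8 were in the files, since Neurod1 and Tubb3 were not analysed here, and their summed level of 3075 CPM ranked 7.

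Several factors that define Cajal-Retzius cells were close to the level that a few UMIs give. Trp73 was at 6.62 CPM here against 542 CPM in Cluster 14, and Ebf3 was at 16.9 and 770 CPM. The LIM factors Lhx1 and Lhx5 were at 2.29 and 3.78 CPM, against 132 and 99.8 CPM in Cluster 14. Other members of that list were found. Calb2, the calcium-binding protein calretinin, was at 47.0 ± 32.1 CPM against 39.2 CPM in Cluster 14, and the zinc finger factor Zic1 at 83.2 ± 78.8 CPM against 76.3 CPM. Ebf1 was at 667 ± 549 CPM against 969 CPM and Ebf2 at 111 ± 121 CPM against 428 CPM. Ebf1 was at 2029 and 1042 CPM in S1-1 and S2-4 and at 232 to 930 CPM in the other 8 embryos. Zic1 was at 284 and 151 CPM in S1-1 and S2-4, and the means of the other 8 embryos were 49.6 CPM for Zic1 and 38.2 CPM for Calb2, both below Cluster 14. The summed level of the 12 genes in that list was 3078 CPM against 13718 CPM in Cluster 14.

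Transcription factors of cortical areas differed in their level. Nr2f1, an area patterning factor, was at its lowest of the 25 clusters, at 38.0 ± 31.1 CPM (SD, n = 10), and the related factor Nr2f2 was at 15.6 ± 11.5 CPM (rank 24). By contrast Etv1, an Ets factor, was higher than in any other cluster at 275 ± 132 CPM, with 5.90 to 63.4 CPM in the other PN clusters. Tshz2, a zinc finger factor, was at 1536 ± 565 CPM (rank 2), above the 56.5 to 520 CPM of the other PN clusters.

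The gene most particular to the level of Cluster 24 was Tfap2e, which encodes the transcription factor AP-2 epsilon, known from mitral cells of the olfactory bulb. It lies on chromosome 4 from 126716006 to 126736240 and was at 6.46, 79.2, 83.5, 166 and 151 CPM in saline embryos S1-1, S1-2, S2-1, S2-2 and S2-4. In EtOH embryos E1-1, E1-2, E2-1, E2-3 and E2-4 it was at 152, 61.8, 112, 119 and 103 CPM. Of these 10 embryos all but S1-1 were thus above 60 CPM, and E2-2 was at 13.8 CPM. Both S1-1 and E2-2 were among the embryos with an atypical profile. In S2-4, which was also among them, 11 of the 12 UMIs of Tfap2e came from 1 nucleus. Tfap2e was found in 7.14%, 20% and 12.5% of the nuclei of S1-1, S2-4 and E2-2 and in 21.1% to 73.3% in the other embryos. Its mean of 103 ± 48.2 CPM (SD, n = 10) was 18.9 times the 5.47 CPM of Cluster 14, the next highest cluster, and 46.5% of the nuclei had a UMI of it against 3.72% in Cluster 14, at similar median depths of 9700 and 9621 UMIs. The list of 12 olfactory projection neuron genes to which Tfap2e and Cdhr1 belong summed to 1147 CPM (rank 9), against 7421 CPM in Cluster 25, where Kcnip4 gave 7077 CPM. In Cluster 24, 3 of the 12 were at their highest, namely Tfap2e, Cdhr1 and Tbx21, the last at 3.98 ± 6.34 CPM.

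Genes of at least 20 CPM were ranked by the ratio of their level to that of the next highest cluster, and 14 of the first 15 are described here. After Tfap2e came Tmem132d, a single-pass membrane protein, at 985 ± 656 CPM or 5.95 times the 166 CPM of Cluster 7. It was at 19.4 and 25.1 CPM in S1-1 and S2-4 and at 635 to 1721 CPM in the other 8 embryos. Next were Ndp, the secreted Frizzled ligand norrin (31.4 ± 17.4 CPM, ratio 5.50), and Cdhr1, a protocadherin of photoreceptors and mitral cells (26.3 ± 21 CPM, ratio 4.74). The clock-related factor Hlf was at 107 ± 46.9 CPM (ratio 3.98), the growth factor gene Igf1 at 45.9 CPM (3.94) and the synaptic organizer Cbln2 at 41.4 CPM (3.12).

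The list also held genes of adhesion and of the extracellular matrix. Cntn4, an adhesion molecule of the contactin family, was at 2957 ± 1282 CPM, or 2.93 times the 1010 CPM of Cluster 19, and Efna5, an ephrin that steers axons, was at 2309 ± 529 CPM, or 2.36 times the next cluster. Lamb1, a laminin chain, was at 125 ± 85.7 CPM (2.82) and Fut8, which adds the core fucose to glycoproteins, at 724 ± 181 CPM (2.82). Hrk, Syt2 and Pcbp3 were also in the list, with ratios between 2.61 and 3.03. Hrk rested on S1-1 and S2-4, with 149 and 87.9 CPM there and 0 to 24.7 CPM in the other 8 embryos, whose mean of 6.03 CPM was below the 9.41 CPM of Cluster 25. The means of the other 13 genes in those 8 embryos were at least 2.52 times the level of the next cluster. Cluster 24 had the highest level of the 25 clusters for 305 of 9250 genes (3.30%), and these levels are a description without a test, since the nuclei were clustered on the same genes.

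**Figure D2:**
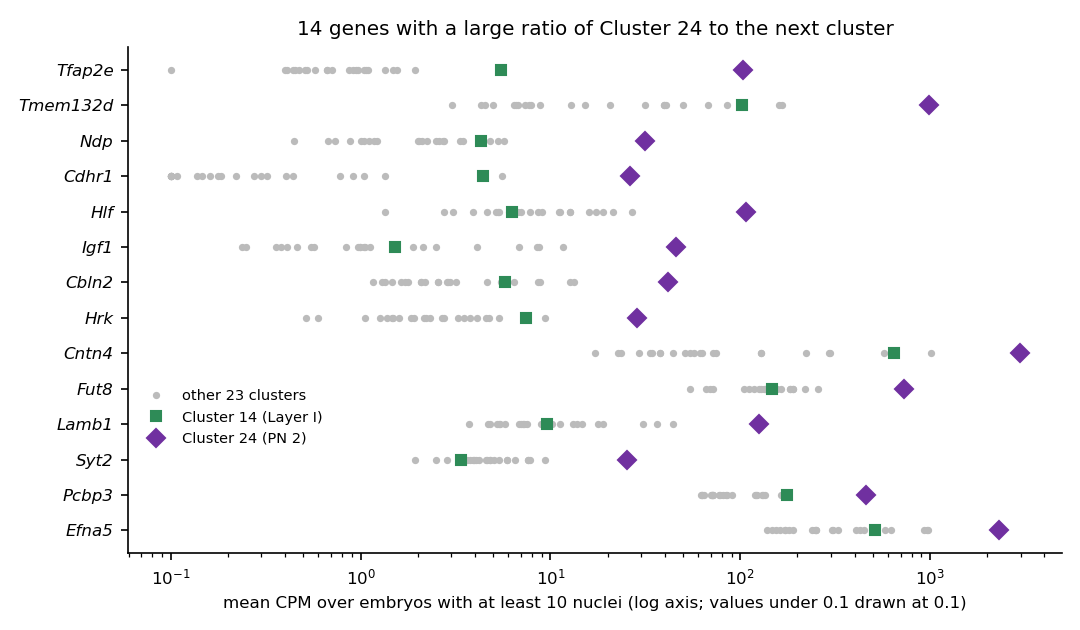
Each row is 1 of 14 genes with a large ratio of its level in Cluster 24 to that in the next highest cluster, and the points give the mean CPM in each of the 25 clusters on a log axis, with values under 0.1 CPM drawn at 0.1. For Tfap2e the point of Cluster 24 is at 103 CPM and the next at 5.47 CPM, while for Efna5 they are 2309 and 977 CPM.

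The cluster most like Cluster 24 by its whole profile depended on the measure. Over 9250 genes, each gene was centred on its mean over the 25 clusters. The correlation was then 0.488 with Cluster 19, which holds neurons of unknown type, 0.418 with interneuron Cluster 7, 0.418 with PN Cluster 25 and 0.356 with Cluster 14. Among the other PN clusters it ranged down to -0.09 with Cluster 9. Without centring, the correlation was 0.933 with PN Cluster 8, 0.930 with Cluster 7 and 0.928 with Cluster 19. These correlations are across genes and all clusters share the same libraries.

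The 29 genes of the Reelin pathway had a median rank of 15 among the 25 clusters, and 5 of them were in the first 3. The 29 genes of this list included Fyn, the kinase that phosphorylates Dab1, which was at 738 ± 189 CPM (SD, n = 10) and higher than in any other cluster, the next being Cluster 1 with 561 CPM. The cytoskeletal protein Map1b was at 1403 ± 198 CPM and Mapt, which encodes tau, at 627 ± 182 CPM, both rank 2. Dab1 itself was at 680 ± 396 CPM (rank 17), against 4511 CPM in Cluster 25. The receptors Lrp8 and Vldlr were at 151 ± 30.3 CPM (rank 13) and 18.1 ± 11.4 CPM (rank 22).

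Genes of the synaptic vesicle summed to 11398 CPM in Cluster 24, more than in any other cluster, and 4 of the 30 had their highest level there. Syt1, the calcium sensor of release, was at 4476 ± 1405 CPM, near the 4295 CPM of Cluster 22. Sv2b, a vesicle glycoprotein, was at 270 ± 113 CPM with 202 CPM in Cluster 22. Sorcs3, a sorting receptor, was at 1789 ± 687 CPM, and it is one of the 20 leading genes the authors chose on these nuclei.

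Genes of GABA-A receptors and chloride transport summed to 3680 CPM, second to Cluster 25 with 5102 CPM. Slc4a10, a bicarbonate exchanger, was highest in Cluster 24 at 507 ± 100 CPM. Kcnj6, a potassium channel that opens with G proteins, was highest in Cluster 24 at 202 ± 54.8 CPM, with 121 CPM in Cluster 25.

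Many axon guidance and adhesion genes were abundant, while the list of Eph receptors and ephrins summed to 7154 CPM (rank 8), against 13622 CPM in Cluster 9. The netrin receptor Dcc was at 15220 ± 5714 CPM, between the 18413 CPM of intermediate progenitor Cluster 6 and the 13439 CPM of Cluster 21. It was at 28877 and 20187 CPM in S1-1 and S2-4 and at 9561 to 16826 CPM in the rest of the 10 embryos. The list of Slit, Robo, netrin and semaphorin genes, to which Dcc belongs, summed to 34016 CPM (rank 3). Nrp2, a semaphorin receptor, and Ntng1, a netrin-G, were highest in Cluster 24 at 623 ± 180 and 600 ± 248 CPM. In the contactin and L1 list, which summed to 14886 CPM (rank 2), Nrcam was highest in Cluster 24 at 1590 ± 361 CPM. Radial glia and division genes were scarce, with 378 CPM for the radial glia list (rank 23) and 68.2 and 64.9 CPM for the S and G2/M lists (rank 24 for both). The intermediate progenitor list summed to 1247 CPM (rank 4), of which Elavl2, an RNA-binding protein also known from neurons, gave 1011 CPM and Eomes, the factor that defines these progenitors, 59.4 CPM against 414 CPM in Cluster 6. The 45 genes of the Wnt pathway summed to 2505 CPM (rank 24).

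Single nuclei of the cluster differed widely in Reln. The median nucleus had 11 UMIs of it and the middle 50% of nuclei had 2 to 31, while 40 of 275 had 0 and the highest had 210. In Cluster 14 the median was 55 UMIs. As a share of their own UMIs, 18 of 275 nuclei (6.55%) reached the median Reln level of Cluster 14.

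To compare detection at 1 depth, each nucleus was thinned at random to 2000 UMIs, which left out 2 of the 275 nuclei. Reln was then found in 74.0% of nuclei, Neurod2 in 16.5% and both in 12.1% (33 of 273). In radial glia of Cluster 2, whose median depth was 7486.5 UMIs against 9700 in Cluster 24, these shares were 8.95%, 2.72% and 0.231%. In PN Cluster 25 they were 62.1% for Reln, 18.5% for Neurod2 and 10.5% for both. In Cluster 14 they were 81.2% for Reln and 4.27% for Neurod2, and Trp73 was found in 50.1% of its nuclei against 1.10% in Cluster 24. Before thinning, Reln was found in 85.5% and Neurod2 in 40.4% of the nuclei of Cluster 24.

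Nuclei with and without a Reln UMI differed in other genes, among them Kcnip4 and Csmd1, which were higher in nuclei with Reln, and Dcc and Hs3st5, which were lower. Counts of the nuclei of each kind, all thinned to 2000 UMIs and without Reln itself, were summed within an embryo, and edgeR's quasi-likelihood test took the embryo as a block. The planned minimum of 10 nuclei of each kind was met only by S2-1 and E2-4, where 38 of 813 genes were higher in nuclei with Reln (4.67%) and 9 were lower (1.11%) when the Benjamini-Hochberg adjusted p was under 0.05 and the level at least 25% higher or 20% lower. That fit has 1 residual degree of freedom. With a minimum of 5 nuclei, chosen after seeing the data, 8 embryos entered, and 40 of 399 genes were higher (10.0%) and 20 lower (5.01%). Both fits called 18 genes higher and 6 lower. Of the 38 and 9 genes called in S2-1 and E2-4, 26 and 6 could be tested in the fit of 8 embryos. Since S2-1 and E2-4 are also among these 8, the overlap is partly built in.

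Kcnip4, which encodes a subunit of A-type potassium channels, was higher in nuclei with Reln in 8 of 8 embryos, at 1084 ± 490 CPM against 111 ± 165 CPM (SD, n = 8, log2 fold change 3.09 ± 0.44 SE, edgeR adjusted p = 0.000544). The size of this change is imprecise, since nuclei without Reln gave 16 UMIs of Kcnip4 in all, with 0 in S2-2, E1-1 and E2-3. Galntl6, of a family of enzymes that start O-linked glycans, was at 788 ± 343 against 62.5 ± 97.1 CPM. Its value is imprecise, since nuclei without Reln gave 10 UMIs of it in all. Csmd1, a large membrane protein, was at 1982, 1564 and 1519 CPM in nuclei with Reln and at 625, 367 and 833 CPM in those without in saline embryos S1-2, S2-1 and S2-2. In EtOH embryos E1-1, E1-2, E2-1, E2-3 and E2-4 it was at 1972, 3000, 2375, 2250 and 2261 CPM with Reln and at 900, 583, 562, 286 and 692 CPM without. The ranges of Csmd1 did not overlap (log2 fold change 1.79 ± 0.22 SE, edgeR adjusted p = 0.000201). The others among the 12 of smallest adjusted p were Gpc5, Ralyl, Meg3, Dpp10, Lrfn5, Arpp21, Tmem132d, Trpm3 and Kirrel3, with log2 fold changes between 1.08 and 2.28.

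Dcc, the netrin receptor, was lower in nuclei with Reln in 8 of 8 embryos, at 12473 ± 5044 against 26821 ± 5888 CPM (SD, n = 8, log2 fold change -1.22 ± 0.25 SE, edgeR adjusted p = 0.00651). In nuclei without Reln it was at 18812 to 36733 CPM over these 8 embryos, and in nuclei with Reln at 3192 to 17889 CPM, without overlap. S1-1, S2-4 and E2-2 had 2, 0 and 1 thinned nuclei without Reln and 12, 9 and 7 with it, and did not enter. Over all their nuclei Dcc was at 28877, 20187 and 17488 CPM. S1-1 and S2-4, although nearly all their nuclei had Reln, thus lay within the range of nuclei without it. Hs3st5, a heparan sulfate sulfotransferase, was at 766 ± 306 against 2187 ± 888 CPM (-1.50), Tmem108, a membrane protein of axons and dendrites, at 950 ± 223 against 2056 ± 510 CPM (-1.12) and Nebl, an actin-binding protein, at 176 ± 122 against 654 ± 247 CPM (-1.76). Efna5 (-0.81) and Bcl11b, a factor of subcortical projection neurons (-0.65), were also lower. Of the 20 leading genes 17 were tested, and 3 were higher, among them Tmem132d and Syt1, and 2 lower (Efna5 and Gm2164), beside 10.0% and 5.01% of all genes tested, with a median log2 fold change of 0.19 beside -0.02. Since the authors chose this list on the same nuclei, its count is not independent evidence. In the planned fit of S2-1 and E2-4, Gpc5, Tmem132d, Trpm3, Syt1, Efna5, Bcl11b and Gm2164 had the same direction and were not called, with edgeR adjusted p from 0.0761 for Gpc5 to 0.525 for Efna5, and Trpm3 had a log2 fold change of 0.73 there against 2.04 in 8 embryos.

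Of the other genes described above, Ntng1 (log2 fold change 1.85 ± 0.40 SE, edgeR adjusted p = 0.00669) and Tshz2 (1.248 ± 0.37 SE, adjusted p = 0.0406) were higher in nuclei with Reln and Nrcam was lower (-0.57 ± 0.16 SE, adjusted p = 0.0291, and 0.106 in the planned fit). Cntn4 was at 3462 ± 1155 CPM with Reln and 3052 ± 680 CPM without (log2 fold change 0.11 ± 0.18 SE, edgeR adjusted p = 0.723). Tfap2e, at 128 ± 52.0 and 152 ± 107 CPM, and Neurod2, at 66.3 ± 81.0 and 109 ± 107 CPM, were too low to be tested. In the fit of 8 embryos 0 of the 8 Reelin pathway genes tested were called, where 10.0% of all genes were higher and 5.01% lower, so a list of this size says little, and their median log2 fold change was -0.29. Dab1, the adaptor of the pathway, was called in the planned fit of S2-1 and E2-4 (log2 fold change 2.22 ± 0.48 SE, edgeR adjusted p = 0.000254), and over 8 embryos it was higher in 5 of them (0.53 ± 0.60 SE) and did not pass the test. With saline embryos alone 21 genes were higher and 2 lower, and with EtOH embryos alone 13 and 7.

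**Figure D3:**
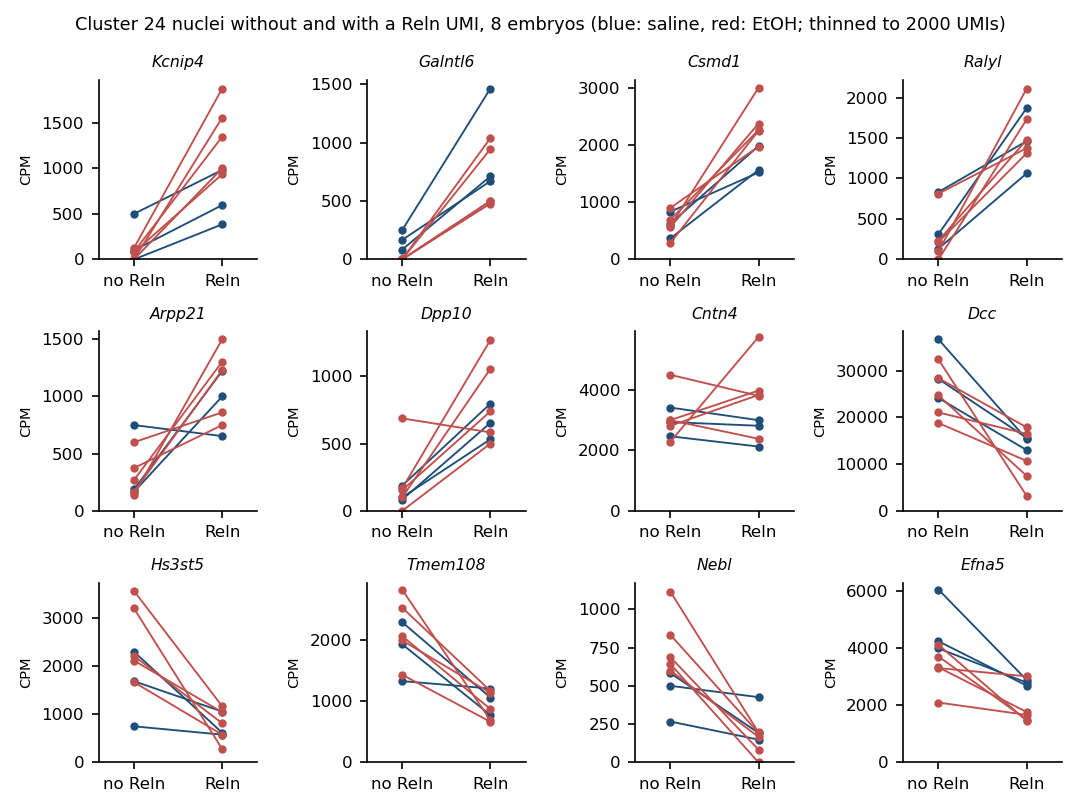
Each panel shows 1 gene, and each line joins the CPM in nuclei without and with a Reln UMI of 1 of 8 embryos (blue for saline, red for EtOH), after thinning every nucleus to 2000 UMIs. The lines of Csmd1 and Kcnip4 rise and those of Dcc and Hs3st5 fall in 8 of 8 embryos, while those of Cntn4 rise in 3 and fall in 5.

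The study asked how EtOH exposure during neurogenesis changes cell types and their genes. The share of nuclei in Cluster 24 was 0.557 ± 0.387% in the 5 saline embryos and 0.643 ± 0.274% in the 6 EtOH embryos (mean ± SD), a difference within the spread of the embryos (two-sided exact permutation test, p = 0.673, with 0.686 when exchanged within batches). The direction turned when S1-1 or S2-4 was left out. The median UMIs per nucleus averaged 10490 ± 1841 in saline and 8890 ± 1535 in EtOH embryos (SD, n = 5 for both, exact permutation test, p = 0.159, within batches p = 0.200). Without S1-1 and S2-4 that difference was -2848 UMIs (exact permutation test, p = 0.0357), so detection was compared on thinned nuclei.

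Fewer nuclei had UMIs of Neurod2 after EtOH. At 2000 UMIs, Neurod2 was found in 21.4%, 31.4%, 19.4%, 18.8% and 44.4% of the nuclei of saline embryos S1-1, S1-2, S2-1, S2-2 and S2-4. It was found in 4.35%, 5.26%, 10.0%, 6.67% and 5.56% of those of EtOH embryos E1-1, E1-2, E2-1, E2-3 and E2-4. These EtOH shares are 1 of 23, 1 of 19, 2 of 20, 1 of 15 and 2 of 36 nuclei in 1 random thinning. Tests were planned for the shares of Reln and of both genes, and those of Neurod2 alone and of Tfap2e were added. The groups did not overlap, with 27.1 ± 11% against 6.37 ± 2.19% (SD, n = 5 for both, exact permutation test, p = 0.00794, the smallest this design allows, adjusted p = 0.0159 over 4 shares, within batches p = 0.0167). Without S1-1 and S2-4 the saline mean was 23.2% (exact permutation test, p = 0.0179, the smallest that 3 against 5 embryos allow). EtOH embryo E2-2, with 8 nuclei, had 25%, and with it included the groups overlapped (exact permutation test, p = 0.0108).

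Reln followed the same direction with less separation. It was found in 85.7%, 77.1%, 75.8%, 81.3% and 100% of nuclei in the saline embryos and in 78.3%, 68.4%, 60%, 53.3% and 63.9% in the EtOH embryos, in the same order. Of these EtOH embryos E1-1 lay within the saline range, as did E2-2 with 87.5%. The means were 84.0 ± 9.76% and 64.8 ± 9.35% (SD, n = 5 for both, exact permutation test, p = 0.0238, adjusted p = 0.0318 over 4 shares, within batches p = 0.0333). The difference did not pass the threshold without S1-1 and S2-4 (-13.3 points, exact permutation test, p = 0.0893) or with E2-2 included (-15.4 points, exact permutation test, p = 0.0563).

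Both genes were found in 21.4%, 28.6%, 12.9%, 9.38% and 44.4% of nuclei in the saline embryos. In EtOH embryos E1-1, E1-2 and E2-1 they were found together in 0 of 23, 0 of 19 and 0 of 20, which at 2000 UMIs per nucleus allows shares of up to 13%, 15.8% and 15%, and in E2-3 and E2-4 in 6.67% and 5.56%. Before thinning, the shares were 34.9% to 78.6% in the saline and 15.8% to 26.7% in these EtOH embryos, at the unequal depths given above. The groups did not overlap (23.3 ± 14.0% against 2.44 ± 3.37%, SD, n = 5 for both, exact permutation test, p = 0.00794, adjusted p = 0.0159 over 4 shares, within batches p = 0.0167), though 9 to 62 nuclei stood behind each saline value. E2-2 had 25%, and once it was added the groups overlapped, with an EtOH minus saline value of -17.1 points (p = 0.0411 over all 11 embryos and 0.0619 within batches, both exact). Without S1-1 and S2-4 the difference for both genes was -14.5 points (exact permutation test, p = 0.0179, the smallest that 3 against 5 embryos allow). Tfap2e was found in 15.8 ± 8.58% of saline and 21.9 ± 7.73% of EtOH nuclei (SD, n = 5 for both, exact permutation test, p = 0.254). Its difference without S1-1 and S2-4 was 1.76 points (exact permutation test, p = 0.75). For each of these shares, fewer neurons that express a gene and less of its RNA per neuron cannot be told apart.

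**Figure D4:**
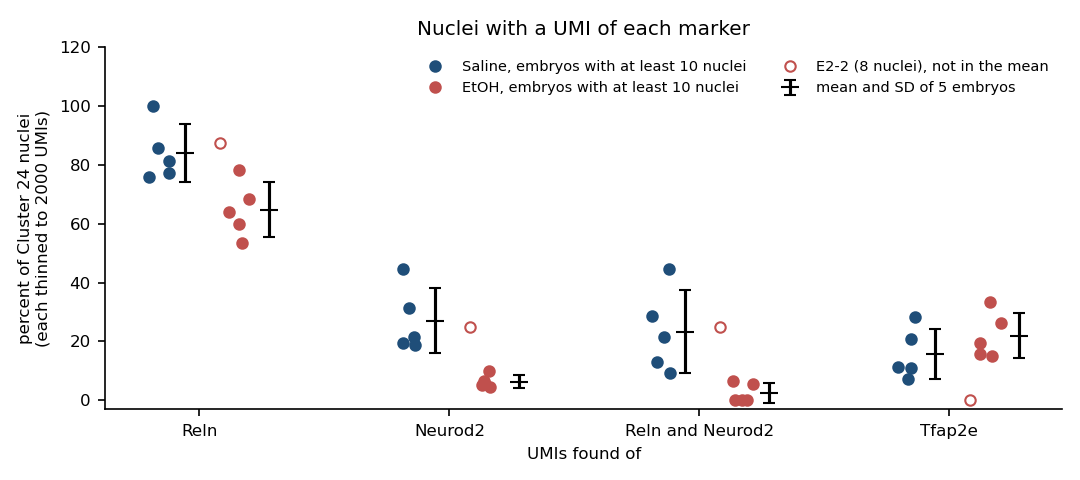
The points give, for each embryo, the percentage of Cluster 24 nuclei thinned to 2000 UMIs in which Reln, Neurod2, both, or Tfap2e was found (blue for saline, red for EtOH), and the bars give the mean and SD over 5 embryos. For Neurod2 the saline points lie between 18.8% and 44.4% and the EtOH points between 4.35% and 10.0%.

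Across all genes, 11 passed the test between treatments. Of 3432 genes tested with edgeR's quasi-likelihood test in 5 saline and 5 EtOH embryos, 10 were higher after EtOH (0.291%) and 1 lower (0.0291%) by the same thresholds of the adjusted p and of the fold change. At an unadjusted p under 0.05 there were 173 higher (5.04%) and 156 lower (4.55%), and the groups did not overlap for 41 higher (1.19%) and 33 lower genes (0.962%). The median log2 fold change was -0.00368. The count of higher genes fell to 0 when S2-1, E1-1, E1-2, E2-1 or E2-3 was left out and was 18 without S2-4. Each of these 5 fits left 254 to 348 genes at an unadjusted p under 0.05. Thinned to 2000 UMIs per nucleus, 835 genes could be tested and edgeR called 0 in either direction, with 75 at an unadjusted p under 0.05. Most of the 3432 genes were too low to enter the thinned fit, so its 0 says little about the 11 calls. Without S1-1 and S2-4 the counts were 29 higher and 0 lower, and 10 of the 11 genes were called. DESeq2 called 23 higher and 6 lower, with all 11 among them. Nuclei of the EtOH embryos had the lower median depth given above, and its part in these results was not tested.

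Dach1, a transcriptional cofactor known from eye and limb development, was the gene that fell. It lies on chromosome 14 from 97786853 to 98169765 and was at 375, 236, 392, 524 and 603 CPM in saline embryos S1-1, S1-2, S2-1, S2-2 and S2-4. It was at 139, 74.1, 84.8, 44.0 and 183 CPM in EtOH embryos E1-1, E1-2, E2-1, E2-3 and E2-4. Every EtOH embryo was below every saline embryo (log2 fold change -1.90 ± 0.33 SE, edgeR adjusted p = 0.0326). The log2 fold change was -1.50 in batch 1 and -2.11 in batch 2, and without S1-1 and S2-4 it was -1.77 (edgeR adjusted p = 0.0796). The excluded EtOH embryo E2-2 had 234 CPM.

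Of the 10 genes that rose, 4 are annotated as protein coding. Nr6a1, a nuclear receptor that represses pluripotency genes, lies on chromosome 2 from 38723370 to 38927688. It was at 187, 118, 166, 173 and 163 CPM in the saline embryos and at 386, 309, 286, 283 and 243 CPM in the EtOH embryos, in the same order, with no overlap (log2 fold change 0.90 ± 0.17 SE, edgeR adjusted p = 0.0326). Slc24a5, a sodium, potassium and calcium exchanger known from pigment cells, was at 92.7 ± 47.5 CPM in saline and 191 ± 21.3 CPM in EtOH embryos (SD, n = 5 for both, log2 fold change 1.27). Rbm4b, an RNA-binding protein of splicing, was at 42.1 ± 21.7 and 92.2 ± 7.11 CPM (2.38 times as high by the fit), and Gm37240, a gene model, at 93.4 ± 40.6 and 196 ± 35.2 CPM (2.33 times as high by the fit). With S1-1 and S2-4 left out, edgeR called 10 of 10 of the genes that rose, with log2 fold changes from 0.94 to 1.48.

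The other 6 are non-coding in the annotation, and they are 60% of the genes that rose against 3.23% of the genes tested. Gm26883, a lincRNA on chromosome 2 from 169633646 to 169888503, was at 174, 559, 262, 465 and 301 CPM in the saline and at 1044, 1155, 1187, 848 and 736 CPM in the EtOH embryos, again without overlap (log2 fold change 1.46 ± 0.27 SE, edgeR adjusted p = 0.0326). Gm20642 (49.5 and 133 CPM), 4930570B17Rik (40.7 and 112 CPM) and D830024N08Rik (41.7 and 93.6 CPM) are antisense transcripts. Gm48742 (96.8 and 206 CPM) and Gm26804 (161 and 318 CPM) are lincRNAs. Their log2 fold changes were between 1.02 and 1.51, and the ranges of Slc24a5, D830024N08Rik and Gm48742 overlapped between treatments.

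All 10 genes that rose overlap a gene on the other strand, as do 58.8% of the genes tested. The authors ran Cell Ranger with its default settings, which count for a gene the reads on its own strand, but the strand setting itself is not given in the sources used here, and whether reads of such a pair were kept apart was not tested. Of the genes opposite to them 8 were tested and 0 were called, with 3 at an unadjusted p under 0.05 in edgeR's test. Tshz2, opposite to Gm26883, had a log2 fold change of 0.61 (edgeR adjusted p = 0.509), Tecr, opposite to D830024N08Rik, 0.54 (adjusted p = 0.381), and Fbxw7, opposite to Gm37240, 0.39 (adjusted p = 0.513). Ctnnd2, Myef2, Nrg3, Gm21992 and Nr6a1os had log2 fold changes between -0.20 and 0.37.

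**Figure D5:**
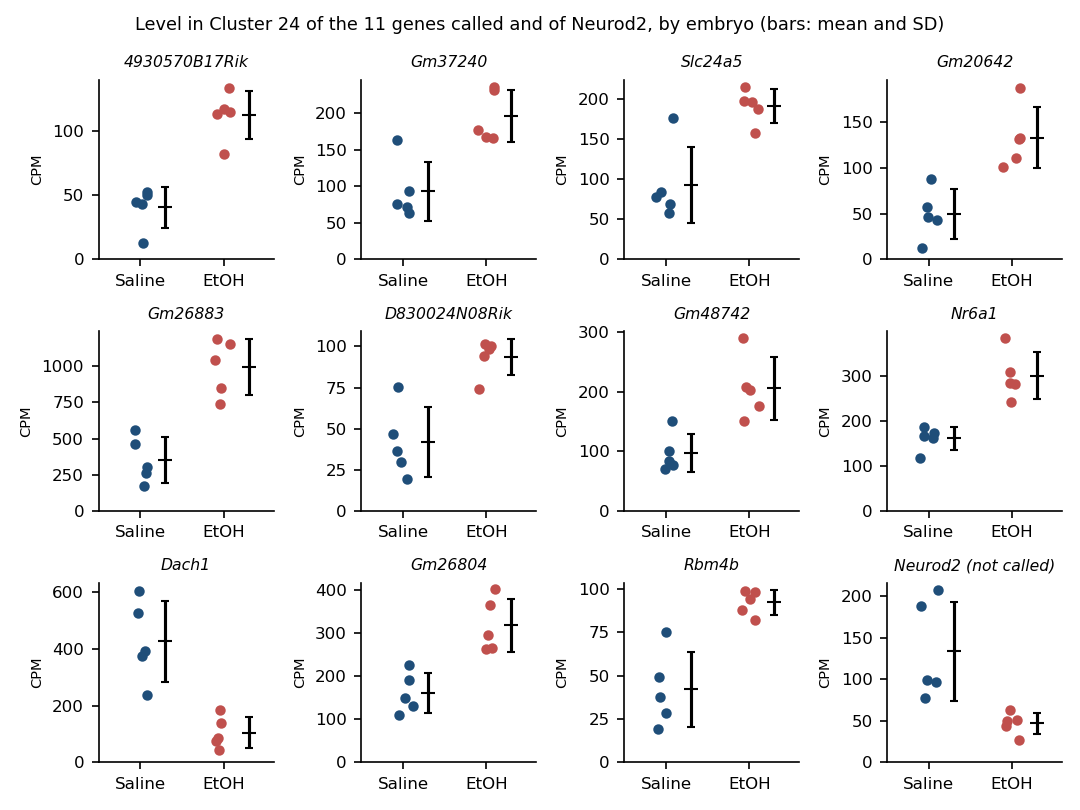
Each panel shows the CPM of 1 gene in Cluster 24 of 5 saline (blue) and 5 EtOH embryos (red), with the mean and SD as bars. The panels of the 10 genes that rose and of Dach1 show the values behind the test, and Neurod2, at 27.6 to 62.5 CPM after EtOH and 77.0 to 207 CPM in saline, did not pass it. E2-2, which is not drawn, had 82.6 CPM of Neurod2.

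Below the threshold, 6 genes are named for the smallest unadjusted p in the lower direction. Neurod2 was at 207, 99.6, 77.0, 96.4 and 188 CPM in the saline and at 50.6, 43.2, 62.5, 50.2 and 27.6 CPM in the EtOH embryos, without overlap (log2 fold change -1.39 ± 0.34 SE, edgeR adjusted p = 0.111, DESeq2 adjusted p = 0.0243). E2-2 was at 82.6 CPM, above S2-1, and with it edgeR's adjusted p was 0.134. Top2b, a topoisomerase of postmitotic neurons, was at 268 ± 23.3 and 165 ± 17.9 CPM (log2 fold change -0.70, edgeR adjusted p = 0.0503, 0.0481 with E2-2, DESeq2 adjusted p = 0.0266). Zfpm2, a cofactor of GATA factors, was at 397 ± 95.4 and 184 ± 63.8 CPM (-1.10, adjusted p = 0.0503). Aff2, the X-linked FMR2 gene, had a log2 fold change of -1.13 (edgeR adjusted p = 0.108, DESeq2 adjusted p = 0.0197), and stood at 2760 and 2498 CPM in S1-1 and S2-4, without which the value was -0.63. The log2 fold change of the RNA helicase Ddx3x was -1.03 (edgeR adjusted p = 0.130) and that of the ciliary factor Rfx3 -0.64 (0.165). Reln was at 2389 ± 597 and 1872 ± 569 CPM (SD, n = 5 for both), a log2 fold change of -0.36 ± 0.24 SE (edgeR adjusted p = 0.666), and its groups overlapped. The value for Reln was -0.14 without S1-1 and S2-4, and it lay between -0.47 and -0.19 with 1 embryo left out.

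Of the members of the 28 gene lists edgeR called 0 between treatments in 5 and 5 embryos, beside 10 higher and 1 lower of all 3432 genes. With E2-2 added edgeR called Zfpm2 (adjusted p = 0.0430) and Kcnj6 (adjusted p = 0.0478), beside 16 and 3 of 3146 genes. DESeq2 called Zfpm2 (adjusted p = 0.00914) and Neurod2, beside 23 and 6 of 3432. Limma with the dam as a random block called Zfpm2 and Kcnj6, beside 36 and 5 of 3432. The fit without S2-2 called Zfpm2, beside 12 and 2 of 3208. With counts summed per dam 16 members were called, beside 89 and 34 of 7654 genes. Without the filter on low counts 16 were called, beside 56 and 49 of 18059. The lists described below are therefore given by their values. Of 20 layer and area factors tested, 16 had a negative log2 fold change, with a median of -0.31 beside -0.00368 over all genes. At an unadjusted p under 0.05 edgeR gave 3 of them lower (Zfpm2, Nfia and Nfib) and 1 higher (Tshz2). Nfia and Nfib, factors of neuronal maturation, stood at 3057 and 4408 CPM in S1-1 and 3590 and 3427 CPM in S2-4, against 978 to 1219 and 928 to 1523 CPM in the other saline embryos. Without S1-1 and S2-4 their log2 fold changes moved from -1.16 to -0.34 and from -1.25 to -0.35. The leading genes of the cluster showed the opposite side of these embryos, with 17 of 20 positive and a median of 0.32. In the fit without S1-1 and S2-4, 8 of the 20 were positive (median -0.01), and 16 of 21 layer and area factors were negative (median -0.13).

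Over all genes tested, 1697 of 3432 log2 fold changes were positive. For GABA-A receptors and chloride transporters 10 of 10 tested were positive, with a median of 0.19, and 1 of them, Gabrb2, was at an unadjusted p under 0.05 (99.1 ± 30.2 and 173 ± 62.2 CPM, log2 fold change 0.86, edgeR adjusted p = 0.236). For synaptic vesicle genes 14 of 18 were positive (median 0.23), with Snap25 at an unadjusted p under 0.05 (0.34, adjusted p = 0.509). With both embryos S1-1 and S2-4 left out these counts were 8 of 12 (median 0.12) and 11 of 21 (median 0.02), beside 2654 of 5271 over all genes tested. Kcnj6 was at 162, 169, 157, 136 and 163 CPM in the saline and at 215, 253, 312, 226 and 230 CPM in the EtOH embryos, without overlap (log2 fold change 0.66 ± 0.15 SE, edgeR adjusted p = 0.0916), and E2-2 was at 289 CPM. Kcnt2, a sodium-activated potassium channel, lay on the other side, at 85.3 to 116 CPM in the saline and 31.6 to 84.8 CPM in the EtOH embryos (log2 fold change -0.66 ± 0.24 SE, edgeR adjusted p = 0.381), with 138 CPM in E2-2. The 20 potassium channel genes tested had a median of -0.02.

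Of 18 genes tested in the Slit, Robo, netrin and semaphorin list 13 were negative (median -0.28). Slit2, a repellent ligand, was at 360 ± 40.9 and 217 ± 85.1 CPM (log2 fold change -0.72, edgeR adjusted p = 0.263), and Robo1, its receptor, at 5779 ± 2807 and 3222 ± 638 CPM (-0.85, adjusted p = 0.344). For Robo1 the value without S1-1 and S2-4 was -0.27, and 14 of 20 genes of the list were then negative (median -0.17). The 16 Reelin pathway genes tested had a median of 0.01, with 9 positive and 7 negative (9 and 13 of 22 without S1-1 and S2-4, median -0.09), and at an unadjusted p under 0.05 there was 1 lower and 1 higher. The higher was Mapt, the microtubule protein tau (507 ± 166 and 747 ± 106 CPM, log2 fold change 0.53, edgeR adjusted p = 0.484, and 0.25 without S1-1 and S2-4). Of the 9 Wnt pathway genes tested 4 were positive, with a median of -0.20.

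Whether the effect of EtOH in Cluster 24 differed from that in other neurons was tested by an interaction of treatment and cell class within the same embryos. Against the other 7 PN clusters summed, edgeR called 0 of 12176 genes (0.00%), with 626 at an unadjusted p under 0.05. Against Cluster 14, it called 0 of 7608 (0.00%), with 365. Without the filter on low counts these counts were 44 and 39, and leaving out 1 embryo gave 1 to 59 and 0 to 1. In simulated data of the comparison with the other PN clusters, 12% of genes with a 2-fold and 62% of genes with a 4-fold difference in effect were recovered, and 4 unchanged genes were called. Those data held no dam effects or atypical embryos, so the shares may be too high.

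The genes of smallest p against the other PN clusters were Zfpm2 (difference of log2 fold changes -1.08 ± 0.22 SE), Rtl4 (2.14 ± 0.40), Tmem163 (1.34 ± 0.25), Nr6a1 (0.89 ± 0.20), Cntnap3 (3.56 ± 0.82) and Hdac9 (0.87 ± 0.20), with edgeR adjusted p between 0.0849 and 0.0954. Cntnap3 had 0 to 3 UMIs in each saline embryo and 0 to 11 in each of the 5 EtOH embryos, with 15 in E2-2, so its value is imprecise. Nr6a1 had a log2 fold change of -0.09 in the other PN clusters beside 0.90 in Cluster 24. Zfpm2 had -0.11 beside -1.10. Dach1 had -0.99 ± 0.21 SE (edgeR adjusted p = 0.0539) beside -1.90, a difference of -1.02 ± 0.40 SE (adjusted p = 0.921). For Neurod2 it was -0.69 ± 0.14 SE (edgeR adjusted p = 0.0539) beside -1.39, a difference of -0.73 ± 0.36 SE (adjusted p = 0.962). In Cluster 14 Neurod2 had -0.46 ± 0.33 SE (edgeR adjusted p = 0.608). Against Cluster 14 the smallest p belonged to Dach1, with a log2 fold change of -0.03 there and a difference of -1.94 ± 0.34 SE (adjusted p = 0.139), followed by Cdh6, Hdac9, Cacnb2, Pantr1 and Fbn2 (adjusted p from 0.571 to 0.740).

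The 10 genes that rose in Cluster 24 were tested in the other neurons of the same embryos as well. Their log2 fold changes lay between -0.09 for Nr6a1 and 1.29 for Gm20642 in the other PN clusters and between 0.19 and 1.18 in Cluster 14, and since all come from the same libraries, these values are not independent of those in Cluster 24. None passed edgeR's test there, and the smallest adjusted p, both of Gm26804, were 0.0556 and 0.186.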

How the data were processed

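snRNAseq libraries (10X 3′ chemistry, version 3.1) of 11 embryos were used, and a further saline embryo, S2-3, was not used here. Cell Ranger and the mm10 genome were used by the authors, who kept nuclei and genes that passed their filters, formed 25 clusters and deposited raw UMI counts of 23513 genes, in 1 table per embryo and cluster. Doublets were not called here.

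Counts of Cluster 24 were summed per embryo, and embryos with fewer than 10 nuclei were left out, with all embryos as an alternative. Genes were tested with edgeR 4.0.16 in R 4.3.3 (glmQLFit with the robust option, TMM, filterByExpr, Benjamini-Hochberg adjustment), with DESeq2 1.42.0 and limma 3.58.1 (voom, dams as random blocks) as alternatives. Shares were compared by two-sided exact permutation tests over embryos, also within batches, in Python 3.11.15 with SciPy 1.17.1, NumPy 2.4.6 and pandas 2.3.3, and plots were made with matplotlib 3.10.9. On simulated data of the treatment comparison over 3432 genes, edgeR recovered 73% of 2-fold and 84% of 4-fold changes. The simulated embryos were independent, with the scatter typical of each gene's level and without dam effects or atypical embryos. These shares may thus be too high for the real embryos. Replicate libraries differed beyond sampling noise, with a chi-square per degree of freedom of at least 2.15. Limits for a count of 0 use 3 counts and cover counting error only.

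Genes were placed on GRCm38 by matching symbols to GENCODE M21. Some genes that the rule names are not reported here. Named are the 15 genes of largest ratio to the next cluster, list members of highest level, all genes called between treatments with the 6 of smallest p where fewer than 5 were called, up to 6 genes per interaction and up to 12 per direction of the Reln split. The members and the gene lists were chosen with earlier results of these data known.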

Additional observations from a re-analysis of the deposited data

Results flagged for a closer look

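Of 58 groups of embryos examined for a value far from the rest, 5 had one, and chance alone marks about 5% of groups, or 1 in 20. The measure is the gap of the highest or lowest embryo to its nearest neighbour, as a share of the group's range, with a critical value of 0.71 for 5 embryos. In saline embryos it was 0.755 for 4930570B17Rik, where S1-1 had 12.9 CPM and the other embryos 43.1 to 52.8 CPM. It was 0.775 for Slc24a5, where S2-4 had 176 CPM and the others 57.4 to 84.0 CPM, and 0.845 for Rfx3, where S1-1 had 685 CPM and the others 435 to 474 CPM. In EtOH embryos it was 0.740 for D830024N08Rik, where E1-2 had 74.1 CPM and the others 94.2 to 101 CPM, and 0.722 for Nfia, where E1-1 had 1297 CPM and the other 4 embryos tested 697 to 864 CPM, while E2-2, which was not among those tested, had 1665 CPM. In each of the 3 saline cases the embryo was S1-1 or S2-4, whose nuclei are few and whose profile stood apart, and the part of this in the values was not tested.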

How the results depend on the processing

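The numbers of genes called depended on the settings, given here as higher and lower after EtOH against 10 and 1. They were 9 and 0 without TMM, 56 and 49 without the filter on low counts, 9 and 1 with a mean of at least 10 counts, 13 and 1 with batch as a term, 36 and 5 with limma and the dam as a random block, 89 and 34 with counts summed per dam, 0 and 0 with nuclei thinned to 2000 UMIs, 1 and 0 with at least 20 nuclei, 16 and 3 with all embryos, 23 and 6 with DESeq2, and 0 to 18 and 0 to 2 with 1 embryo left out. Both fits that use the dam called all 11 genes. The correlation within dams in the limma fit was estimated at -0.116, and the fit of counts summed per dam has 1 residual degree of freedom. These calls thus say little about the part of the litter, which was not tested. Added after seeing the data, the counts were 29 and 0 without S1-1 and S2-4, 0 and 0 in batch 1 alone and 2 and 0 in batch 2 alone. The replicate block, over 4 pairs of embryos of the same number, gave 0 and 2, and since those pairs correlated at -0.029 to 0.054, the numbers did not pair the embryos. Of 421 refits of the 11 genes called, the 6 of smallest p in the lower direction and Reln, 0 turned direction. All but Reln were chosen for a small p in these same embryos, so a turn was unlikely. Each of the 11 genes was called in 2 or 3 of the 10 fits that left out 1 embryo. The log2 fold change of Tfap2e was 0.17 and turned to -0.19 in batch 2 alone, and that of Pantr1 was 0.50 and turned to -0.37 in batch 1 alone.

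The interaction with the other PN clusters gave 44 genes without the filter, 4 without TMM, 8 without S1-1 and S2-4 and 1 to 59 with 1 embryo left out, where 59 was without S1-2. That with Cluster 14 gave 39 without the filter and 0 to 1 with 1 embryo left out. In the Reln split, 29 genes were higher and 1 lower without the filter, and 30 and 8 with at least 2 UMIs of Reln. With at least 5 nuclei, the counts were 40 and 20, 48 and 13 without thinning, 21 and 2 in saline alone, and 13 and 7 in EtOH alone. With the planned minimum of 10 nuclei, the fits without thinning, in saline alone, in EtOH alone and with 1 embryo left out were not run, as too few embryos remained.

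The difference in the share of nuclei, 0.0862 points, turned to -0.560 points of PN nuclei, to -0.178 points without S1-1 and S2-4, and lay between -0.0183 and 0.209 points with 1 embryo left out, below 0 without S1-1 or S2-4. The difference in UMIs per nucleus was -2848 without S1-1 and S2-4. The difference in Reln detection weakened to -15.4 points with all embryos and -13.3 points without S1-1 and S2-4. Some embryos gave 10 to 20 nuclei to the split and the interactions, and the part of this in their counts was not tested.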
